A study of Homo sapiens with 8 samples.

Results

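Smooth muscle and other cells contract by sliding myosin II along actin filaments. Actins form the thin filament, tropomyosins lie along it, calponins and transgelin bind it and restrain the motor or bundle filaments, and a small regulatory light chain switches myosin on when kinases phosphorylate it. In epithelial cells the same proteins build stress fibres and the cortical actin belt, and many of their genes are classical targets of serum response factor, which binds CArG boxes.

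The expression of 10 genes of this machinery was examined in BCPAP cells, an established line grown from a papillary carcinoma of the thyroid: the actins *ACTBL2*, *ACTA2* and *ACTG2*, the calponins *CNN1*, *CNN2* and *CNN3*, the calponin relative *TAGLN*, the tropomyosin gene *TPM1*, the myosin light chain gene *MYL9* and *FILIP1L*, which encodes a relative of a filamin-interacting protein. They are 10 of the 33616 genes that had a probe set annotated with a single gene symbol, and each had exactly 1 such probe set. The set was chosen by function around large changes already known from these same arrays, above all the falls of *ACTBL2*, *CNN1* and *FILIP1L*, so the differences of the 10 genes are given as a description. Tests and interval estimates for them come from the fit over all probe sets and support nothing about the set as a whole.

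Cells received an siRNA pool against *EPB41L4A* (si*EPB41L4A*) or a non-specific pool (si*NS*) with a lipid reagent and were harvested after 72 h, with 4 arrays per group. *EPB41L4A* encodes a band 4.1 family protein of the membrane cytoskeleton. The medium held serum, an antibiotic-antimycotic and Plasmocin prophylactic, and the paper describes no further treatment. Both groups share the line and its somatic mutations, which the paper places in *BRAF* and *p53*. Each group rests on a single siRNA pool in 1 line, so an effect of the pool apart from its target cannot be told apart from the knockdown. The paper does not say whether the arrays of both groups were processed together, and their sample records are numbered in separate blocks. A batch difference between the groups therefore cannot be told apart from the knockdown either. The 4 experiments of a group were run on separate occasions. In this bulk RNA, fewer cells that express a gene and less RNA per cell cannot be told apart.

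*EPB41L4A* averaged 6.33 ± 0.70 on the log2 scale with si*EPB41L4A* and 9.53 ± 0.26 with si*NS* (SD, n = 4 each), a difference of -3.20 log2 units (limma adjusted p = 0.000491, and p = 0.0286 in an exact two-sided permutation test, the smallest that 4 arrays against 4 allow). *LRRC34*, which a label of the si*NS* samples names as an siRNA target, averaged 5.02 ± 0.73 with si*EPB41L4A* and 4.39 ± 0.55 with si*NS* (SD, n = 4 each), below background on all 8 arrays, so its probe set cannot check that label. The median log2 value per array was 3.72 to 3.84 and any 2 arrays correlated at 0.962 to 0.977 over all probe sets. The 95th percentile of the 612 negative control probe sets, used here as the level of background, was 5.97 to 6.09 on si*EPB41L4A* arrays and 6.04 to 6.43 on si*NS* arrays. Of 9 measured markers of epithelial and thyroid origin, 5 lay above background on all 8 arrays (*KRT8*, *KRT18*, *PAX8*, *NKX2-1* and *FOXE1*), *KRT19* on 2 arrays and *EPCAM* on 5, and *TG* and *TSHR*, which mark differentiated thyroid cells, on none. *EPCAM* was lower, with a log2 change of -2.43 (limma adjusted p = 0.00683). The other tested markers of this list did not pass the test and differed in direction. *KRT8*, *KRT18* and *NKX2-1* had log2 changes of -1.02, -0.55 and -0.36, and *KRT19*, *PAX8* and *FOXE1* of 0.15, 0.39 and 0.53. Of 8 smooth muscle markers, *SMTN* and *MYOCD* were above background on all arrays and 5, among them *MYH11* and *DES*, on none.

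The 10 genes did not move as a block. After *EPB41L4A* knockdown *ACTBL2*, *CNN1* and *FILIP1L* had log2 changes of -3.80 to -4.20, *CNN3* and *TPM1* were higher by 1.20 and 1.43, and the other 5 did not pass the test. All 10 passed the filter on low values, and the threshold of an adjusted p of 0.05 over all 66831 probe sets tested called 3 of them lower and 2 higher. Among the 22465 genes tested, 2.96% were called lower and 2.55% higher in si*EPB41L4A* arrays. Among probe sets the shares were 1.38% lower (923) and 1.23% higher (824), and after quantile normalization 759 were lower and 1041 higher. The median log2 change of the 10 genes was -0.08, beside -0.06 for all genes tested. In 5 of the 10 genes the groups did not overlap, as in 14.4% of all genes tested. As the set was built on this comparison, nothing is read from these counts.

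**Figure D1:**
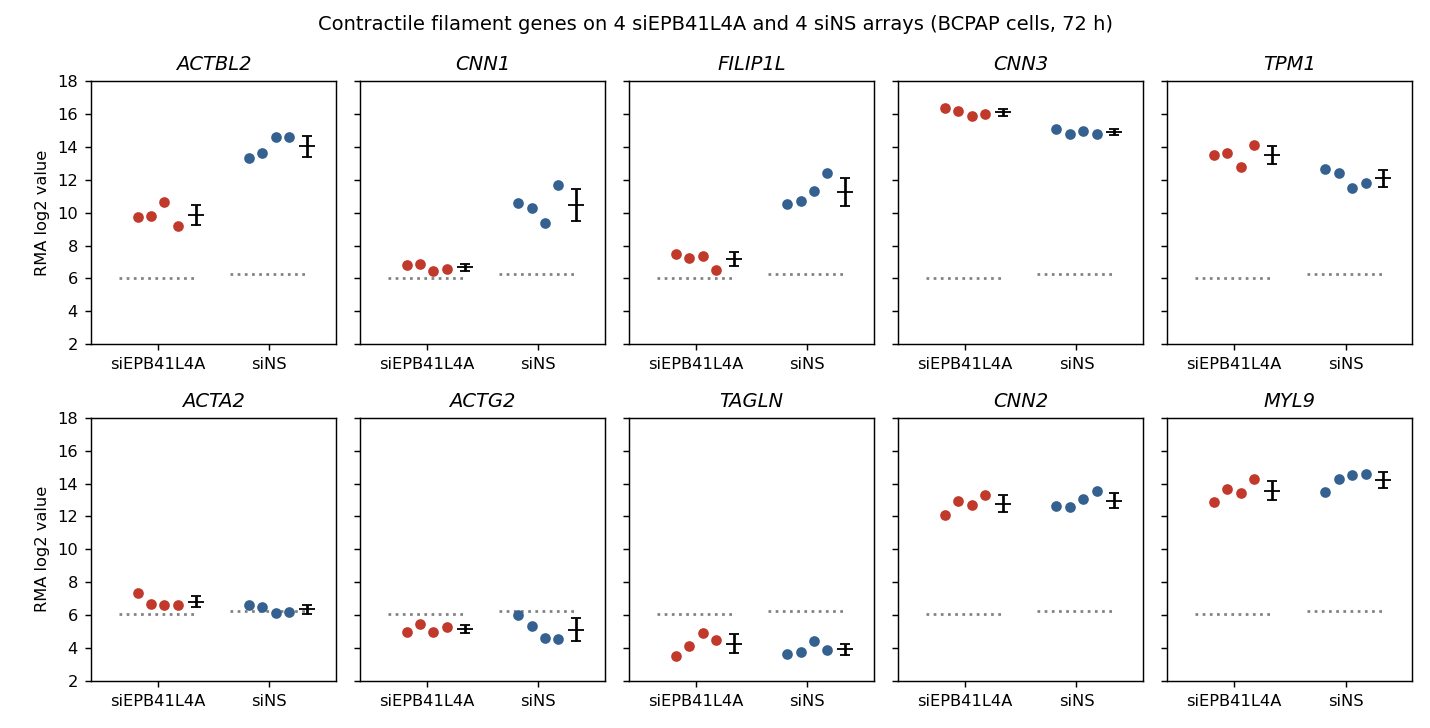
RMA log2 value of each of the 10 genes on the 4 si*EPB41L4A* arrays (red, left) and the 4 si*NS* arrays (blue, right), each point 1 array in replicate order, with the group mean and SD beside the points and the group's mean 95th percentile of the negative controls as a dotted line. *ACTBL2*, *CNN1* and *FILIP1L* are lower and *CNN3* and *TPM1* higher with si*EPB41L4A* on every array, while *ACTG2* and *TAGLN* lie below the dotted line in both groups.

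*ACTBL2* encodes a cytoplasmic actin closely related to beta-actin and read from a gene without introns. Its log2 values were 9.75, 9.77, 10.64 and 9.19 on the si*EPB41L4A* arrays, against 13.35, 13.62, 14.57 and 14.61 on the si*NS* arrays. The highest si*EPB41L4A* array stood 2.72 below the lowest si*NS* array, and both groups were above background throughout. The means were 9.84 ± 0.60 with si*EPB41L4A* and 14.04 ± 0.65 with si*NS* (SD, n = 4 each), a difference of -4.20 log2 units (standard error 0.36, 95% interval -4.99 to -3.42), or 18.4-fold lower on the deposited scale. This was the 4th largest fall among the 22465 genes tested. Leaving out any 1 array kept the change between -4.47 and -3.99.

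*CNN1*, the calponin of differentiated smooth muscle, had log2 values of 6.79, 6.89, 6.46 and 6.55 on the si*EPB41L4A* arrays, against 10.59, 10.26, 9.35 and 11.70 on the si*NS* arrays. Its si*EPB41L4A* values lay close together and just above background, spanning 0.44, while the si*NS* values spanned 2.35 with array 3 lowest and array 4 highest. The groups were 2.45 apart at their nearest arrays. *CNN1* averaged 6.67 ± 0.20 with si*EPB41L4A* and 10.47 ± 0.97 with si*NS* (SD, n = 4 each), a difference of -3.80 log2 units (standard error 0.39, 95% interval -4.66 to -2.94), or 13.9-fold lower and 9th among the falls.

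*FILIP1L*, named for its likeness to a filamin A-interacting protein and linked to cell migration, had log2 values of 7.48, 7.25, 7.35 and 6.54 on the si*EPB41L4A* arrays, against 10.51, 10.71, 11.34 and 12.42 on the si*NS* arrays. As for *ACTBL2* and *CNN1*, array 4 was the highest of the si*NS* group, and no array of one group entered the range of the other. Its means were 7.15 ± 0.42 with si*EPB41L4A* and 11.24 ± 0.86 with si*NS* (SD, n = 4 each), a difference of -4.09 log2 units (standard error 0.38, 95% interval -4.92 to -3.26), or 17.0-fold lower and 6th among the falls. The gap between the nearest arrays of the groups was 3.03, the widest of the 10 genes. Without any 1 array the change of *CNN1* stayed between -4.18 and -3.39 and that of *FILIP1L* between -4.34 and -3.70.

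The start regions of these 3 genes are shown because they had the largest falls of the set. Each is the RefSeq window (GRCh38.p14) from 250 bases before to 50 after an annotated transcript start, written 5′ to 3′ on the gene's strand, with capitals for matches on either strand to a CArG box, to the muscle element MCAT (GGAATG) or to a GC box (GGGCGG).
ACTBL2, chr5:57482762-57483061, minus strand: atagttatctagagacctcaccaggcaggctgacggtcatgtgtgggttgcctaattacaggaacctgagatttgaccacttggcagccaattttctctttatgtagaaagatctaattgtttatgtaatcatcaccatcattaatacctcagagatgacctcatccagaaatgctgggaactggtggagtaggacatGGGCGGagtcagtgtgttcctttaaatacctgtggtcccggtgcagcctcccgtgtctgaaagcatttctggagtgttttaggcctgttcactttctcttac
CNN1, chr19:11538601-11538900, plus strand: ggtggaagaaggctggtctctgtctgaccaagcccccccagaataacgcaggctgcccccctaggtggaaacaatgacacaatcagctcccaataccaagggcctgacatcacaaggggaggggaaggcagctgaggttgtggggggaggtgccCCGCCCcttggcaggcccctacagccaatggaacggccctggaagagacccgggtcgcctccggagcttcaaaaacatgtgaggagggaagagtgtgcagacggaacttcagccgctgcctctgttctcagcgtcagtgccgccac
FILIP1L, chr3:99876124-99876423, minus strand: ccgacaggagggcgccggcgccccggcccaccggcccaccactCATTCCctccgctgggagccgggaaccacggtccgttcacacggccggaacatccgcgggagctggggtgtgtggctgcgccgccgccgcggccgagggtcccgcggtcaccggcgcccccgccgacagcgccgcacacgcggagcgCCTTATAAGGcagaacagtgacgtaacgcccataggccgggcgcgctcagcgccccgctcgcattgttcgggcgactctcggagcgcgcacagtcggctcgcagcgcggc
The *ACTBL2* window holds a GC box at -52 and the *CNN1* window a GC box at -96, counted to the first base of the match from the transcript start. The *FILIP1L* window holds an MCAT match at -207 and a CArG box at -60. The other annotated *FILIP1L* start had no match to any of these motifs.

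Of the 10 genes, 8 had RefSeq windows, 11 in all, and *TAGLN* and *MYL9* were not in that table. A CArG box occurred in 1.29% of all 35116 windows and in those of *ACTG2*, *CNN2* and *FILIP1L*. CArG-like sequences, with a single G or C in the core, occurred in 6.94% of windows, and *ACTA2* had a pair of them. These matches are shown with 10 bases on either side, the match in capitals.
ACTG2, chr2:73892888-73892917, plus strand, CArG box at -110: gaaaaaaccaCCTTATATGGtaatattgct
ACTG2, chr2:73892925-73892954, plus strand, CArG box at -73: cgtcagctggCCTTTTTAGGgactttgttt
CNN2, chr19:1026509-1026538, plus strand, CArG box at -89: cgcctccaggCCTTATAAGGacatttgcgc
FILIP1L, chr3:99876214-99876243, minus strand, CArG box at -60: acgcggagcgCCTTATAAGGcagaacagtg
ACTA2, chr10:88952875-88952904, minus strand, CArG-like at -121: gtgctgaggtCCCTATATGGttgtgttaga
ACTA2, chr10:88952825-88952854, minus strand, CArG-like at -71: tgtctttgctCCTTGTTTGGgaagcaagtg
*CNN2* and *FILIP1L* carry the same 10-base match, and of the genes with a CArG box or CArG-like match *FILIP1L* alone passed the test, lower in si*EPB41L4A* arrays. MCAT occurred in 14% of all windows and in those of *ACTA2*, *CNN3* and *FILIP1L*. A GC box occurred in 45% of all windows and in those of *ACTA2*, *ACTBL2*, *CNN1*, *CNN2*, *CNN3* and *TPM1*, with overlapping matches in *CNN2* and *TPM1*. The TATA box, searched as TATAAA on both strands, occurred in 11.5% of windows and, of these genes, in that of *ACTG2*, at -31. There the gene's strand reads TTTATA, so the match lies on the opposite strand. A match describes the letters of a window and is not evidence of binding.

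**Figure D2:**
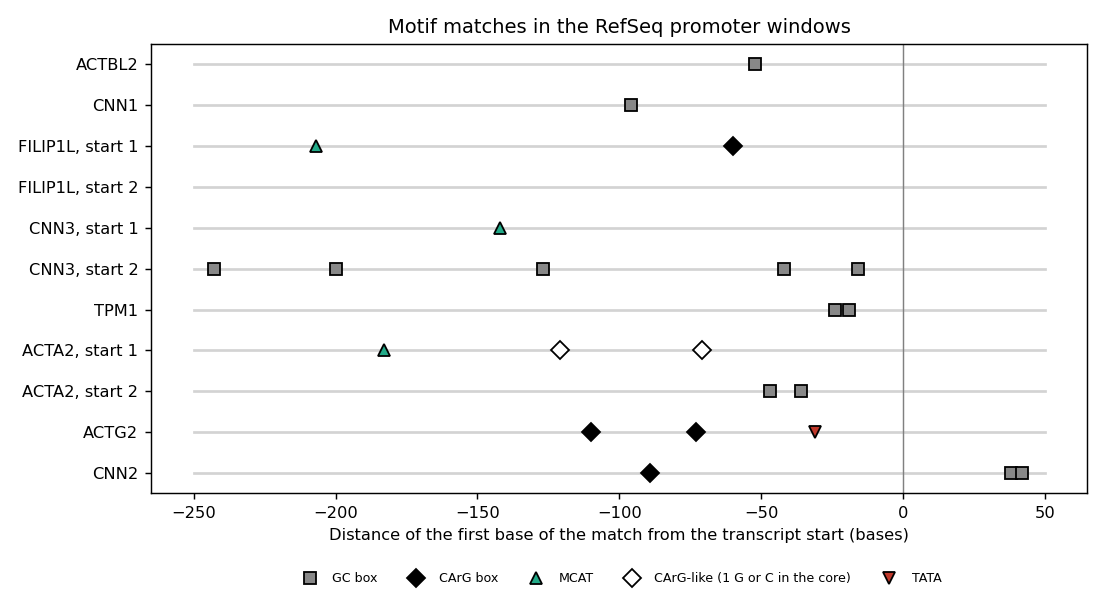
Matches to 5 motifs in the 11 RefSeq windows of 8 genes, as the distance in bases of the first base of each match from the transcript start (vertical line at 0). CArG boxes lie between -110 and -60 in *ACTG2*, *CNN2* and *FILIP1L*, and the window of *CNN3* start 2 holds 5 GC boxes.

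The smooth muscle actins *ACTA2* and *ACTG2* did not pass the test. *ACTA2*, the alpha-actin that marks myofibroblasts and vascular smooth muscle, had log2 values of 7.34, 6.70, 6.61 and 6.64 on the si*EPB41L4A* arrays, against 6.62, 6.48, 6.10 and 6.17 on the si*NS* arrays. The groups met at their edges, with 1 si*EPB41L4A* array just below the highest si*NS* array and array 1 highest in both. *ACTA2* was above background on all 4 si*EPB41L4A* arrays and 3 of the si*NS* arrays. The log2 change was 0.48 (standard error 0.24, 95% interval -0.03 to 1.0, limma adjusted p = 0.397).

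*ACTG2*, the gamma-actin of visceral smooth muscle, had log2 values of 4.95, 5.44, 4.95 and 5.27 on the si*EPB41L4A* arrays, against 6.02, 5.33, 4.60 and 4.53 on the si*NS* arrays. None of these exceeded the background of its array, and the si*NS* values enclosed all si*EPB41L4A* values. The log2 change of 0.03 (standard error 0.32, 95% interval -0.66 to 0.72, limma adjusted p = 0.984) turned sign when single arrays were left out, between -0.17 and 0.33. Actin genes share long near-identical coding stretches. The probe sequences were not used here, so how far the actin probe sets share signal was not tested.

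The 3 calponins differed in direction. Calponins share an actin-binding repeat region: *CNN1* is the smooth muscle form, while *CNN2* and *CNN3* are made more widely, *CNN3* in many non-muscle cells. *CNN3* had log2 values of 16.34, 16.20, 15.87 and 16.00 on the si*EPB41L4A* arrays, against 15.10, 14.75, 14.94 and 14.81 on the si*NS* arrays. All si*EPB41L4A* arrays were above all si*NS* arrays, by at least 0.76, and the arrays within each group lay close together. *CNN3* rose to 16.10 ± 0.21 with si*EPB41L4A*, against 14.90 ± 0.16 with si*NS* (SD, n = 4 each), a difference of 1.20 log2 units (standard error 0.21, 95% interval 0.75 to 1.65, limma adjusted p = 0.00956), or 2.30-fold. The call held in all 8 fits without 1 array, with adjusted p-values of 0.019 to 0.0395.

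*CNN2* had log2 values of 12.11, 12.94, 12.67 and 13.33 on the si*EPB41L4A* arrays, against 12.63, 12.60, 13.04 and 13.57 on the si*NS* arrays. The groups overlapped over most of their range. The log2 change was -0.20 (standard error 0.30, 95% interval -0.85 to 0.46, limma adjusted p = 0.856). The intervals of *CNN1*, *CNN2* and *CNN3* do not meet one another, though the differences between these genes were not tested. *TAGLN*, which encodes transgelin, a calponin-related protein of smooth muscle, had values of 3.54, 4.11, 4.91 and 4.50 on the si*EPB41L4A* arrays, against 3.61, 3.77, 4.41 and 3.87 on the si*NS* arrays. All 8 lay below background and the groups overlapped, with a log2 change of 0.35 (standard error 0.30, 95% interval -0.31 to 1.01, limma adjusted p = 0.692).

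*TPM1*, whose tropomyosin chains run along the thin filament and stabilise it, had log2 values of 13.53, 13.63, 12.77 and 14.11 on the si*EPB41L4A* arrays, against 12.63, 12.38, 11.50 and 11.80 on the si*NS* arrays. The groups did not overlap, but the lowest si*EPB41L4A* array, array 3, stood only 0.13 above the highest si*NS* array, array 1. *TPM1* rose to 13.51 ± 0.56 with si*EPB41L4A*, against 12.08 ± 0.52 with si*NS* (SD, n = 4 each), a difference of 1.43 log2 units (standard error 0.32, 95% interval 0.73 to 2.14, limma adjusted p = 0.0384), or 2.70-fold. The call was lost without the filter on low values (adjusted p = 0.0578). It was also lost without si*EPB41L4A* array 1, 2 or 4 (adjusted p = 0.0764, 0.113 and 0.0889) and without si*NS* array 2, 3 or 4 (adjusted p = 0.0687, 0.102 and 0.0863), with log2 changes of 1.23 to 1.68 over all 8 omissions.

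*MYL9*, the regulatory light chain that myosin light chain kinase phosphorylates, had log2 values of 12.85, 13.66, 13.45 and 14.29 on the si*EPB41L4A* arrays, against 13.51, 14.25, 14.53 and 14.57 on the si*NS* arrays. The lowest value was on an si*EPB41L4A* array and the 2 highest on si*NS* arrays, and 2 si*EPB41L4A* arrays lay inside the si*NS* range. The log2 change was -0.65 (standard error 0.33, 95% interval -1.36 to 0.06, limma adjusted p = 0.409).

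**Figure D3:**
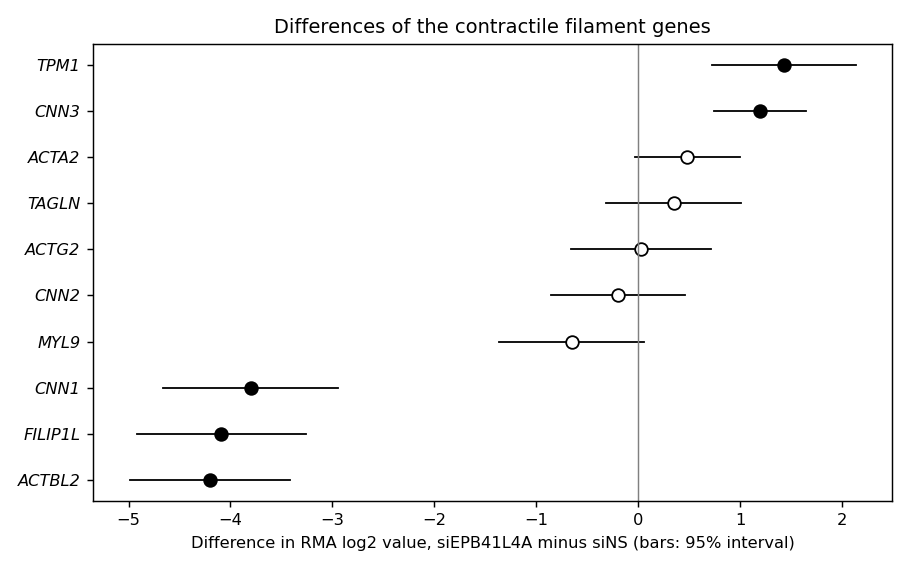
Difference in RMA log2 value, si*EPB41L4A* minus si*NS*, for the 10 genes in order of size, with 95% intervals from the limma fit. Filled points mark the 5 genes past the threshold, from -4.20 for *ACTBL2* to 1.43 for *TPM1*. Open points mark the 5 that were not, whose intervals all include 0.

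Within the groups, the genes did not share 1 order of arrays. Of the si*NS* arrays, array 4 was highest for *ACTBL2*, *CNN1*, *CNN2*, *MYL9* and *FILIP1L*, whereas array 1 was highest for *ACTA2*, *ACTG2*, *CNN3* and *TPM1* and lowest for 4 others. Of the si*EPB41L4A* arrays, array 3 was lowest for 5 of the genes, a tie in *ACTG2* included. Counting by level, 7 of the 10 genes exceeded background on every array, *ACTA2* on 7 arrays, and *ACTG2* and *TAGLN* on none.

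The genes around the 10 loci were mostly not called. RefSeq lists 32 genes that overlap one of the 10 or lie nearest to it on either side, of which 20 were measured and 15 tested. Of these, 1 was lower and 14 did not pass the test. The lower gene, *ELOF1*, which encodes a transcription elongation factor, lies next to *CNN1* and averaged 11.55 ± 0.30 with si*EPB41L4A* and 12.76 ± 0.30 with si*NS* (SD, n = 4 each), a difference of -1.21 log2 units (limma adjusted p = 0.0187). Its call was lost without si*EPB41L4A* array 2 or 3 or si*NS* array 1 or 3, with adjusted p-values up to 0.067. *ECSIT*, on the other side of *CNN1*, had a log2 change of -0.15 (limma adjusted p = 0.886). *CMSS1*, which spans the *FILIP1L* locus, averaged 8.25 ± 0.50 with si*EPB41L4A* and 8.07 ± 0.72 with si*NS* (SD, n = 4 each), a difference of 0.18 log2 units (limma adjusted p = 0.894) beside the change of -4.09 in *FILIP1L*. *FAS*, which overlaps *ACTA2*, had a log2 change of 0.40 (limma adjusted p = 0.815). No neighbour of *ACTBL2* was tested.

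**Figure D4:**
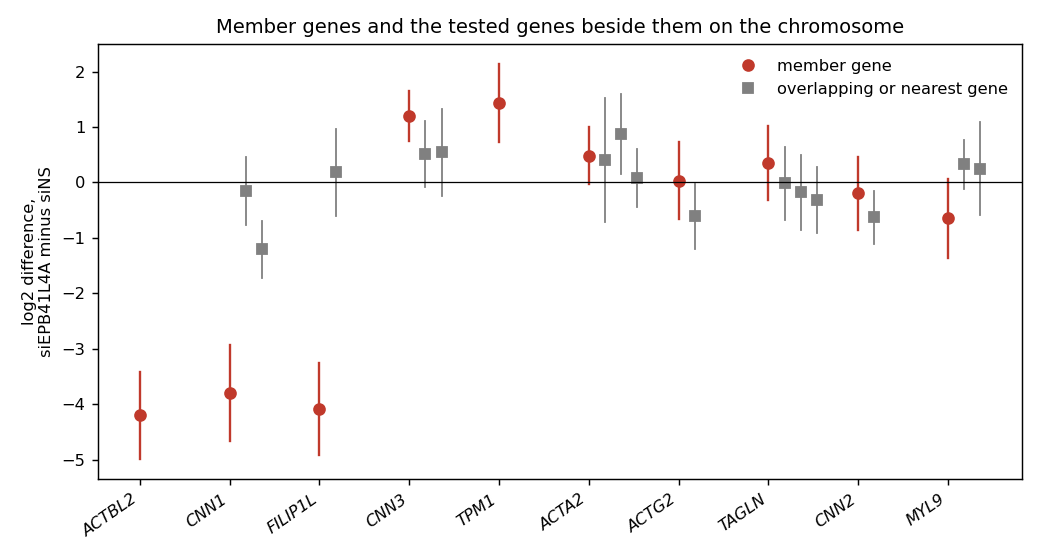
Difference in RMA log2 value, si*EPB41L4A* minus si*NS*, with 95% intervals from the limma fit, for the 10 genes (red circles) and, to the right of each, the tested genes that overlap it or lie nearest to it (grey squares). Beside *CNN1* at -3.80 stand *ECSIT* at -0.15 and *ELOF1* at -1.21, and beside *FILIP1L* at -4.09 stands *CMSS1* at 0.18.

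Related genes were taken from 10 lists of 120 genes, 8 lists of the actin and contractile apparatus, 1 of SRF and its cofactors and 1 of TGF-beta signalling, with 108 genes measured and 102 tested. Of these, 5 were higher (4.9%, beside 2.55% of all genes) and 8 lower (7.84%, beside 2.96%), and 89 did not pass the test. After quantile normalization 7 were higher and 5 lower, so the balance of the directions depends on the scaling. Their median log2 change was -0.06, equal to that of all genes tested. Without si*EPB41L4A* array 2, or without si*NS* array 2, 8 genes were called in all, 4 in each direction. The lists were chosen with earlier results of these data known, so nothing is read from these counts and shares.

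None of the 4 other actin genes passed the limma test, and 1 of them, *ACTC1*, had an unadjusted p under 0.05. *ACTB*, *ACTA1* and *ACTC1* had log2 changes of 0.50, 0.12 and -0.54 (limma adjusted p = 0.748, 0.901 and 0.268), against -4.20 in *ACTBL2*. *ACTG1* averaged 19.55 ± 0.15 with si*EPB41L4A* and 19.55 ± 0.11 with si*NS* (SD, n = 4 each), close to the highest values of the arrays, where a rise may be compressed. The transgelin paralogs *TAGLN2* and *TAGLN3* had changes of -0.38 and -0.20 (limma adjusted p = 0.625 and 0.89), beside -3.80, -0.20 and 1.20 in *CNN1*, *CNN2* and *CNN3*. *TAGLN3* was above background on no array, and *ACTC1* on 1 si*NS* array only.

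Next to *TPM1*, 1 of 7 thin filament genes tested rose. *TMOD3*, which encodes a tropomodulin that caps the pointed end of tropomyosin-coated filaments, rose to 14.94 ± 0.25 with si*EPB41L4A*, against 13.58 ± 0.30 with si*NS* (SD, n = 4 each), a difference of 1.36 log2 units (limma adjusted p = 0.00894). *TPM4* had a log2 change of 0.81 with no overlap between groups (limma adjusted p = 0.0998), which passed the threshold under 3 of 8 alternatives (adjusted p = 0.0374 to 0.0495). *TPM2* stood at -0.65 (adjusted p = 0.327), *CALD1* at 0.44 (0.649), *TMOD1* at 0.43 (0.827), *TMOD2* at -0.08 (0.952) and *LMOD1* at -0.25 (0.782), with adjusted p-values from limma in parentheses. *TMOD2* and *LMOD1* were above background on no array, *TPM2* on 4 arrays and *TMOD1* on 5. *TMOD4* and *LMOD2* fell below the filter, and *TPM3* was not analysed here.

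Next to *MYL9*, 2 of 7 genes for other myosin II chains fell, both essential light chains. *MYL6B* averaged 11.75 ± 0.32 with si*EPB41L4A* and 13.10 ± 0.18 with si*NS*, and *MYL6* averaged 13.74 ± 0.76 with si*EPB41L4A* and 15.19 ± 0.26 with si*NS* (SD, n = 4 each). They differed between groups by -1.35 and -1.44 log2 units (limma adjusted p = 0.00835 and 0.045). The *MYL6* call was lost in 6 of 8 fits without 1 array, those without si*EPB41L4A* array 2 or 3 or any si*NS* array (adjusted p up to 0.135), and without the filter (0.0683). Averaging its 2 probe sets gave a log2 change of -0.76 (limma adjusted p = 0.0491). Of 13 genes for light chain kinases, the myosin phosphatase and their regulators, *RHOB*, which encodes a short-lived small GTPase of endosomes, was the single call. Its log2 values were 7.99, 7.29, 7.31 and 8.42 on the si*EPB41L4A* arrays, against 10.54, 9.51, 9.81 and 12.04 on the si*NS* arrays. The groups did not overlap, and array 4 was highest in both. The log2 change of *RHOB* was -2.73 (standard error 0.48, limma adjusted p = 0.0109), called in all 8 fits without 1 array.

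Next to *FILIP1L*, 1 of 13 genes for filamins, actinins and crosslinkers fell, *SYNPO*, which encodes an actin-associated protein of podocytes and dendritic spines (log2 change -1.19, limma adjusted p = 0.0415). That call held only without si*EPB41L4A* array 3 among the 8 fits without 1 array (adjusted p up to 0.111 in the others). *FILIP1*, the paralog of *FILIP1L*, fell below the filter and was not tested, and *FLNC* and *ACTN1* were not analysed here. Of 10 smooth muscle differentiation genes tested, only *SYNM*, an intermediate filament gene, was called lower (log2 change -1.37, limma adjusted p = 0.03). It was above background on 2 si*NS* arrays and on no si*EPB41L4A* array. Its call was lost in 6 of 8 fits, all but those without si*EPB41L4A* array 1 or si*NS* array 3, with adjusted p-values up to 0.0998. The summed log2 values of the 8 smooth muscle markers were 40.87 to 43.79 on si*EPB41L4A* arrays and 43.18 to 45.42 on si*NS* arrays, and those of 7 fibroblast markers were 41.96 to 45.21 on si*EPB41L4A* arrays and 43.26 to 45.46 on si*NS* arrays. The lower smooth muscle sum rests mainly on *PLN*, with a log2 change of -1.93 (limma adjusted p = 0.216). The other smooth muscle markers ran from -0.55 for *MYOCD* to 0.35 for *SMTN*. The part of other cell types in the changes of *CNN1* and *ACTBL2* was not tested.

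The genes of factors known to drive contractile genes through CArG boxes did not pass the test, apart from 1 cofactor. These are RNA levels, and the activity of the factors was not measured. *SRF* averaged 7.32 ± 0.31 with si*EPB41L4A* and 7.03 ± 0.47 with si*NS* (SD, n = 4 each), a difference of 0.28 log2 units (limma adjusted p = 0.729). *MRTFA*, its actin-sensing cofactor, had a change of -0.12 (adjusted p = 0.91), *MYOCD*, the smooth muscle cofactor, -0.55 (adjusted p = 0.562), and *TGFB1I1*, a focal adhesion LIM protein, -0.02 (adjusted p = 0.987), all from limma. *FHL2*, a LIM protein that binds SRF, rose to 11.72 ± 0.14 with si*EPB41L4A*, against 10.23 ± 0.55 with si*NS* (SD, n = 4 each), a difference of 1.49 log2 units (limma adjusted p = 0.0132). *MRTFB*, *SCAI* and *FHL1* were not analysed here.

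Among 31 genes of actin assembly and disassembly, 2 rose and 2 fell. The formins *DIAPH3* and *DIAPH2*, which nucleate and extend unbranched filaments, had log2 changes of 2.43 and 1.12 (limma adjusted p = 0.00455 and 0.0281). *GSN*, the filament-severing gelsolin, and *CORO1B*, a coronin that acts on branched filaments, had changes of -1.40 and -0.91 (limma adjusted p = 0.0117 and 0.045). *DIAPH2* was called in 2 of 8 fits without 1 array, those without si*EPB41L4A* array 4 or si*NS* array 1 (adjusted p up to 0.096 in the others), and *CORO1B* only in the fit without si*EPB41L4A* array 1 (up to 0.126). *GSN* was not called when all its probe sets were averaged (log2 change -0.64, adjusted p = 0.0662). Of 10 genes of TGF-beta signalling, a pathway known to induce *ACTA2*, *CNN1* and *TAGLN* in other cells, the receptor gene *TGFBR2* had a log2 change of 2.80 and the induced matrix gene *TGFBI* one of -1.47 (limma adjusted p = 0.000603 and 0.00639), and the other 8 did not pass the test.

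**Figure D5:**
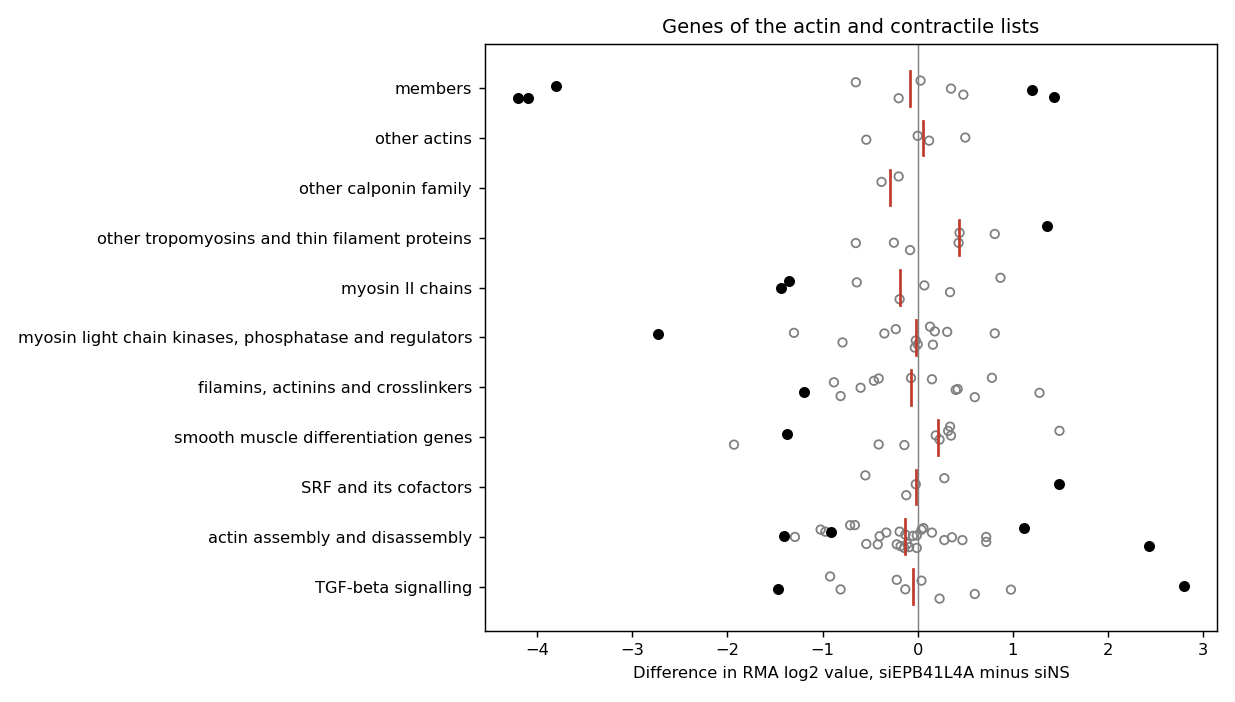
Difference in RMA log2 value, si*EPB41L4A* minus si*NS*, of each tested gene in the set of 10 (top line, "members") and in the 10 lists of related genes, 1 point per gene, filled where past the threshold, with the median of each list as a red bar. The lists run from -2.73 for *RHOB* to 2.80 for *TGFBR2*, and the medians lie between -0.29 and 0.43.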

How the data were processed

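RNA of BCPAP cells was hybridised to Clariom D Human arrays, with 4 arrays for each siRNA pool. Affymetrix Expression Console was used by the authors for RMA (background correction, quantile normalization and summary per probe set), and the deposited values are on the log2 scale. Its version, and the genome build behind the annotation, were not given in the sources used here. The deposited log2 values were used without further normalization. A difference of 1 on this scale is a doubling of the deposited signal. The highest deposited values lie above the range of a scanner's raw log2 intensities, and the settings behind this are not known. Fold sizes therefore describe the deposited scale and may differ from those of the raw intensities. The number of arrays limits the precision, and values near the highest (about 19.9 for *GAPDH*) may be compressed.

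Of 135750 probe sets, with 2995 control rows left out, 66831 lay above their array's median on at least 4 of 8 arrays and were tested in limma 3.58.1 (R 4.3.3) (a linear model per probe set with empirical Bayes moderation, no block, differences taken as si*EPB41L4A* minus si*NS*). P-values were adjusted by Benjamini-Hochberg and called under 0.05. The fit was tested on simulated data. A gene was named only from a probe set with a single symbol in the platform annotation and was represented by whichever of its probe sets had the highest mean. Both groups carry replicate numbers 1 to 4. Deviations of same-numbered arrays from the group means correlated at 0.228, 0.0746, 0.201 and 0.385, and no source ties a number to an experiment, so the arrays were treated as unpaired. Nothing says how far the arrays are independent beyond the separate time points, so p-values measure the spread between these arrays.

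The 10 genes and all lists were chosen with earlier results of these data known. Named were the 10 genes, *EPB41L4A*, *LRRC34*, every gene of 4 small lists (other actins, other calponin relatives, other thin filament genes, SRF and its cofactors), the up to 3 largest called rises and falls of each other list, and chromosomal neighbours. Cell type markers were named in part and summed on the log2 scale. Sequences and neighbours were taken from RefSeq, GRCh38.p14, matched by gene ID for all 10 genes. Alternatives were the fit with a replicate block, without the filter or with one at the 75th percentile, after quantile normalization or median centring, with a trended prior variance, with array weights, on averaged probe sets of a gene, and with each array left out.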

Additional observations from a re-analysis of the deposited data

Results flagged for a closer look

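In 4 of 126 groups of 4 arrays examined (63 genes), 1 array stood apart from the other 3 by Dixon's criterion, which divides the gap to the nearest array by the range of the group. Chance marks about 1 in 20 such groups. *ACTA2* had a log2 value of 7.34 on si*EPB41L4A* array 1, against 6.61 to 6.70 on the other arrays of that group. *CALD1*, which encodes the actin-binding caldesmon, had 11.02 on si*EPB41L4A* array 4, against 9.67 to 9.82 on the others. *FAS-AS1*, next to *ACTA2*, had 6.56 on si*EPB41L4A* array 3, against 5.66 to 5.78. *SALL4P1*, a pseudogene next to *ACTBL2* that fell below the filter, had 3.14 on si*EPB41L4A* array 4, against 3.48 to 3.51. *ACTA2*, *CALD1* and *FAS-AS1* did not pass the test between groups, and *SALL4P1* was not tested.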

How the results depend on the processing

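Signal over background limits *ACTG2* and *TAGLN*, which lay below it, and *CNN1* in si*EPB41L4A* arrays, which lay just above it. *FILIP1L* came close to it on si*EPB41L4A* array 4, at 6.54 against a background of 6.06. Of the related genes, *TAGLN3*, *TMOD2* and *LMOD1* were above background on no array, so their small changes cannot be read as steady expression. On the 4 si*EPB41L4A* arrays, *EPB41L4A* and *SYNPO* were above background on 2, *EPCAM* on 1 and *SYNM* on 0, so background limits the size of these falls too. The set of 10 had 4 to 5 genes called when single arrays were left out, and *EPB41L4A* stayed between -3.46 and -2.94. The calls of *ACTBL2*, *CNN1*, *FILIP1L* and *CNN3* held under the 8 other alternatives and all 8 omissions. With the replicate number as a block, the count of probe sets called was 3176 (1436 higher, 1740 lower), against 1747 without it, and the count among the genes of the 10 related lists was 24 (10 higher, 14 lower), against 13. The block also lost *CORO1B* (adjusted p = 0.0509) and gained *TPM4* (adjusted p = 0.0443), and changed no call among the 10 genes. Leaving out 1 array gave 797 to 1628 probe sets called, lowest without si*EPB41L4A* array 2, and 8 to 13 of the other genes. Quantile normalization turned the balance of calls, to 1041 higher and 759 lower among probe sets and 7 higher and 5 lower among the other genes. *SYNPO*, *MYL6* and *CORO1B* were not called after quantile normalization (adjusted p = 0.0567, 0.0507 and 0.0685), and *SYNPO* and *CORO1B* not without the filter (0.0578 and 0.0527). The cause of these shifts was not tested.

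Changes of sign were limited to genes that were not called. *ACTG1* had log2 changes of 0.04 after quantile normalization, 0.02 after centring and 0.01 with array weights. *TGFB1I1* had 0.06 after quantile normalization and 0.00 after centring, and *PCSK7*, which overlaps *TAGLN*, 0.05 after quantile normalization and 0.02 with array weights. Over the omissions of 1 array, the log2 change of *ACTG2* ran between -0.17 and 0.33, *CNN2* between -0.39 and 0.02, *ACTA1* between -0.05 and 0.31, *ACTB* between -0.09 and 0.81, *ACTG1* between -0.05 and 0.07, *TAGLN3* between -0.50 and 0.07, *TMOD2* between -0.33 and 0.12, *MRTFA* between -0.28 and 0.05 and *TGFB1I1* between -0.22 and 0.18. Among the neighbours, *CMSS1* ran between -0.11 and 0.43, *ECSIT* between -0.35 and 0.06, *FAS-AS1* between -0.13 and 0.17, *PCSK7* between -0.19 and 0.25, *SIDT2* between -0.37 and 0.05 and *TGIF2* between -0.04 and 0.57.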
